A study of Mus musculus with 14 samples.

Results

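The genes described here are the AIM2-like genes of the Ifi200 family, a cluster of interferon-inducible genes on mouse chromosome 1. They were taken as Ifi205, Ifi204, Ifi203, Aim2 and Mndal, chosen by the signal of Ifi205, which stood out as strongly lower in CD115+ blood cells. A member got a value where a probe set of the array listed it as its only gene, which held for 4 of 5 members, each with 1 probe set, among 22180 genes measured in this way. Ifi203 shared its probe set with a pseudogene and a further locus and had no value of its own. The comparison in CD115+ cells chose the genes, so its values are given as a description and without a test. The rule did not use the comparison in aorta, which was tested, although results of both tissues were known when the genes were taken.

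The study asked what loss of the lymphotoxin beta receptor, a relative of the tumour necrosis factor receptors that signals to NF-kB, does to gene expression in atherosclerosis-prone mice. All mice were male, lacked apolipoprotein E, ate a Western type diet for 4 weeks from the age of 8 weeks and were 12 weeks old. The double-deficient groups also lacked the receptor (genotype label ApoE/LTbR-double deficient), and the control groups were their littermates labelled ApoE deficient, although their sample titles call them WT. There were 4 double-deficient and 4 ApoE-deficient arrays of aorta with its perivascular fat. There were 3 and 3 arrays of cells pulled from peripheral blood with beads against CD115, the macrophage colony-stimulating factor receptor of monocytes. Among the latter, ApoE-deficient replicates 3 and 4 each pooled 2 littermates. Neither the strain background nor the kind of mutated allele is given in the sources used here. Whether a mouse gave both blood and aorta is not stated in the labels.

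The values are log2 signals from which the probe set's median within that tissue has been taken. A level can therefore be compared between arrays of 1 tissue, but not between genes or tissues, so the order of the members by level and the presence of a tissue's defining markers could not be checked. The number of arrays limits the precision. Ltbr, the deleted receptor, had values of -0.98, -1.10, -1.29 and -0.49 in double-deficient aortas and 0.63, 0.49, 0.70 and 0.89 in ApoE-deficient aortas. In CD115+ cells its values were -0.07, -0.62 and -0.44 against 0.55, 0.07 and 0.40. Its groups did not overlap in either tissue, as the genotype labels would have it. Differences below are double-deficient minus ApoE-deficient on the log2 scale, with the standard error (SE) of the limma fit.

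Proteins of this family carry HIN domains, which bind DNA, and most also carry a pyrin domain, which binds other pyrin domains. AIM2 senses DNA in the cytosol and assembles an inflammasome through the adaptor ASC (gene Pycard) and caspase-1, which matures interleukins 1 beta and 18 and cleaves gasdermin D. Ifi204 encodes p204, a nuclear and cytosolic DNA-binding protein often set beside human IFI16, while Ifi205 and Mndal encode relatives known mainly as interferon-inducible genes of leukocytes. Interferons act on many of these genes through the interferon-stimulated response element, which binds complexes of STAT and IRF factors.

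The promoters are shown because they are where the family's shared interferon input would act, and because they show how alike its members are. The RefSeq promoter table (build GRCm38.p6) held 14 windows for 12 genes of the cluster, among them 4 of 5 members, each window running from 250 bases before to 50 after an annotated start. The core of the response element was searched on both strands as GAAA, any 2 bases and GAAA again. It was present in 10 of 14 windows and in 9 of 12 genes, against 3.44% of 32851 windows in the whole table and 14 of 24 windows of a list of interferon-stimulated genes. The window of Ifi205 held 2 matches, in capitals below, 134 bases before the start and, on the opposite strand, 23 bases after it. The window of Aim2 held none. Both are shown whole, Ifi205 as the gene that led to the choice and Aim2 as the family's inflammasome sensor and a member without a match.
Ifi205 (chr1:174031706-174032005, minus strand): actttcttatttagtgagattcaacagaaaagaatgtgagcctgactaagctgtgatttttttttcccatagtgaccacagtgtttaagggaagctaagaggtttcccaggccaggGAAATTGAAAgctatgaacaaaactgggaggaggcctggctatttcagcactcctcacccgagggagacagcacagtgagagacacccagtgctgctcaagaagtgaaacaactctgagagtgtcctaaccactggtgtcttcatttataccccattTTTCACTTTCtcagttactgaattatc
Aim2 (chr1:173420354-173420653, plus strand): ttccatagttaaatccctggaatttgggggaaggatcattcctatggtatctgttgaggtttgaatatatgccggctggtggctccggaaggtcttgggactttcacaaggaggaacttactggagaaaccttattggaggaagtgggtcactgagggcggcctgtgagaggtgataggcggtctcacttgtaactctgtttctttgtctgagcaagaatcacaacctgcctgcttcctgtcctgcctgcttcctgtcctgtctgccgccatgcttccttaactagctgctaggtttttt

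The stretches of 20 bases on either side of the match show the members and their measured or unmeasured relatives side by side, with the element core in capitals.
Ifi205 (chr1:174031860-174031909, minus strand): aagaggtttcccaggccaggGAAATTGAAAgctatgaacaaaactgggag
Ifi211 (chr1:173913054-173913103, minus strand): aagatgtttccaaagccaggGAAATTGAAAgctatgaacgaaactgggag
Ifi207 (chr1:173741821-173741870, minus strand): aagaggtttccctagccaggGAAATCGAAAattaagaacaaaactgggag
Mndal (chr1:173880194-173880243, minus strand): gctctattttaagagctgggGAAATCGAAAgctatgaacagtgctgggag
Ifi203 (chr1:173942498-173942547, minus strand): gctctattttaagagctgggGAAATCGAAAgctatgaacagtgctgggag
Ifi208 (chr1:173673587-173673636, plus strand): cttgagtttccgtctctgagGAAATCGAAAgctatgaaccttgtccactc
Ifi213 (chr1:173599316-173599365, minus strand): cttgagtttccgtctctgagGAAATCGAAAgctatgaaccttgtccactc
Ifi214 (chr1:173536007-173536056, minus strand): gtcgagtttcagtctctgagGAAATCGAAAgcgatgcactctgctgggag
Mndal and Ifi203 were identical over all 50 bases, as were Ifi208 and Ifi213. Ifi205 shared 46 of 50 bases with Ifi211, 44 with Ifi207 and 33 with Mndal. In 7 of 9 genes with a match on the gene's own strand the core read GAAATCGAAA. Ifi205 and Ifi211 carried the substitution C6T against Mndal, counted from the 5' end of the core, and read GAAATTGAAA. Genes of this family are close copies in their transcripts as well, so probe sets may share signal and each gene's value is uncertain to that extent. Ifi211, for which Ifi205b is an older name in the RefSeq table, had no probe set of its own.

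Each of the other motifs was found in 1 or 0 of 14 family windows, too few to set against its share of all windows. The gamma-activated site, TTCNNNGAA, was found in the window of Ifi202b, 148 bases before the start (8.3% of all windows). A kappa B site, searched as GGGA, any 2 bases and TTCC, which is the kind of site NF-kB binds, was found in that of Ifi209, 49 bases before the start (1.47% of all windows). The composite element of ETS and IRF factors, searched as GGAA, any 2 bases and GAAA, was in 0 of 14 windows (2.72% of all). A match is a description of the letters and does not show binding.

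**Figure D1:**
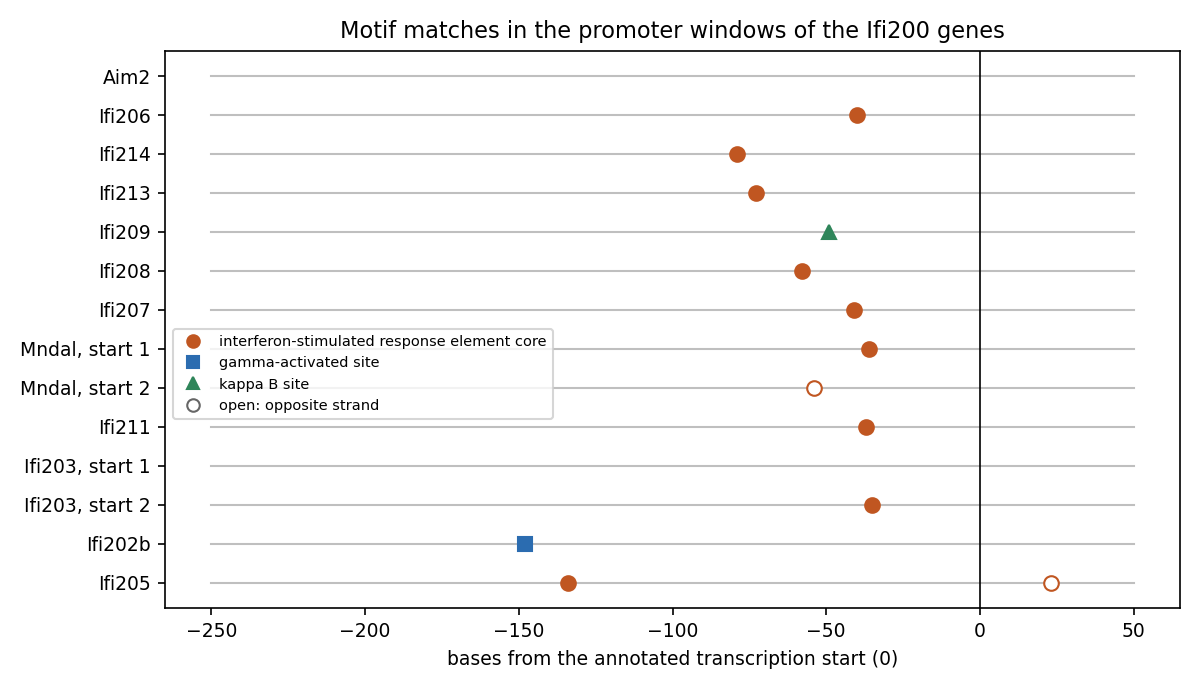
Motif matches in the 14 promoter windows of 12 Ifi200 genes, in chromosomal order, plotted by distance in bases from the annotated start (0). Filled symbols lie on the gene's strand and open symbols on the opposite one. Most element cores lie from 35 to 79 bases before the start. Those of Ifi205 lie 134 bases before it and, on the opposite strand, 23 bases after it.

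In CD115+ cells the 4 members did not move as 1 group. Ifi205 had values of -0.52, -1.20 and -1.10 in double-deficient replicates 1 to 3 and of 0.52, 1.15 and 0.53 in ApoE-deficient replicates 1, 3 and 4. All 3 double-deficient preparations lay below all 3 controls, and the nearest values of the groups were -0.52 and 0.52. The difference was -1.67 (SE 0.25), a signal 3.18-fold lower, with means of -0.94 ± 0.37 and 0.73 ± 0.36 (SD, n = 3 each). It was the most negative of all 22180 genes, which is why it was chosen. With both pooled control preparations left out, which leaves 1 control array and so no measure of the controls' spread, it was -1.45. Across the fits that left out 1 preparation it ran from -1.88 to -1.46.

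Ifi204, the p204 gene, had values of -1.39, -0.51 and 0.17 in preparations of double-deficient mice, against 0.11, -0.11 and 0.20 in controls. The groups overlapped, and the low mean rested mainly on double-deficient replicate 1. The difference was -0.64 (SE 0.38), and -0.24 without that replicate. Aim2, the inflammasome sensor, had values of -0.86, 0.40 and 0.60 against 0.23, -0.23 and -0.34. Here double-deficient replicate 1 was the lowest of the 6 arrays and replicates 2 and 3 were the highest. Mndal had the same arrangement, with -0.83, 0.68 and 0.39 against 0.16, -0.19 and -0.16. The differences were 0.16 (SE 0.41) for Aim2 and 0.14 (SE 0.40) for Mndal, and 0.61 and 0.60 without double-deficient replicate 1. They turned to -0.02 and -0.16 without replicate 2 to -0.12 and -0.01 without replicate 3, and to -0.18 and -0.08 against the 1 control array that was not pooled.

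Of the 4 members, 1 had groups that did not overlap with the double-deficient side lower, against 5.23% of all genes (3.93% on the higher side), in the contrast that chose them. No gene of the 22180 passed an adjusted p of 0.05 in CD115+ cells in limma in either direction (0% called), while 517 lower (2.33%) and 457 higher (2.06%) had an unadjusted p under 0.05.

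**Figure D2:**
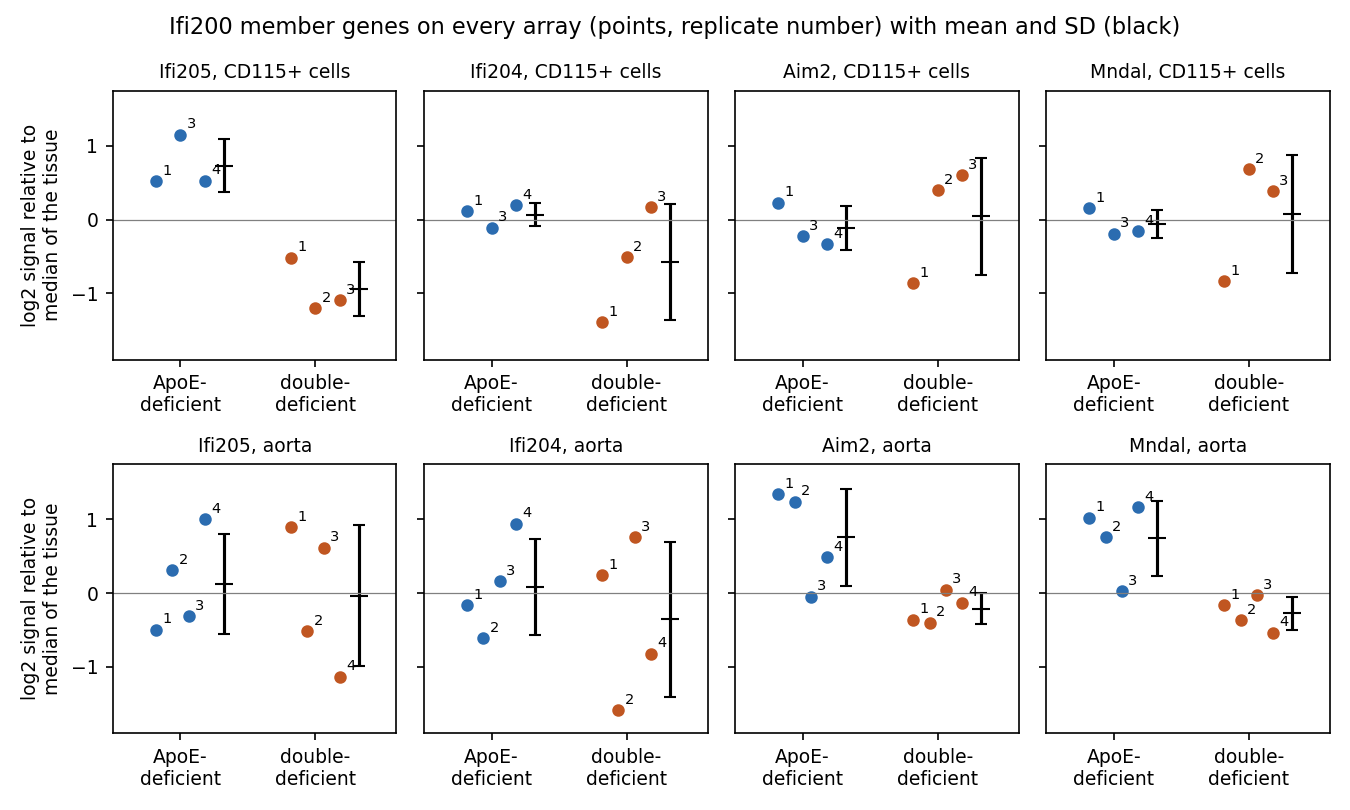
Log2 signal relative to the median of the tissue for the 4 members, with 1 point per array (number: replicate) and the mean with SD in black. Upper panels show CD115+ cells (n = 3 each) and lower panels aorta (n = 4 each). Ifi205 separates the genotypes in CD115+ cells and Mndal in aorta.

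In aorta the picture was turned round: Aim2 and Mndal were the members with the largest differences, and Ifi205 had the smallest. Mndal had values of -0.16, -0.37, -0.03 and -0.54 in double-deficient replicates 1 to 4 and of 1.02, 0.76, 0.03 and 1.16 in ApoE-deficient replicates 1 to 4. The groups did not overlap, but ApoE-deficient replicate 3 lay next to the double-deficient arrays. The difference was -1.02 (SE 0.25), a signal 2.02-fold lower, with means of -0.27 ± 0.23 and 0.74 ± 0.51 (SD, n = 4 each). The exact two-sided permutation test of Mndal alone gave 0.0286, the smallest p that 4 against 4 arrays allow, and it was 1 of 4 members tested. Over all 22180 genes its adjusted p was 0.46 (limma), so it did not pass. Without ApoE-deficient replicate 3 the difference was -1.26 with an adjusted p of 0.0371, and over all alternatives the adjusted p ran from 0.0371 to 0.699.

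Aim2 had values of -0.36, -0.40, 0.05 and -0.13 in double-deficient aortas and 1.34, 1.24, -0.05 and 0.49 in ApoE-deficient aortas. Control replicates 1, 2 and 4 lay above every double-deficient array, and control replicate 3 lay among them. The difference was -0.97 (SE 0.30), or 1.95-fold, with a 95% interval from -1.67 to -0.26 before any adjustment. The exact two-sided permutation p was 0.0571 and the adjusted p over all genes 0.532 (limma).

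Ifi205 in aorta had values of 0.90, -0.52, 0.62 and -1.13 in double-deficient samples, against -0.50, 0.32, -0.32 and 1.00 in controls. Both groups spread over the same range. The difference was -0.16 (SE 0.51, exact permutation p = 0.743, limma adjusted p = 0.972), with a 95% interval from -1.35 to 1.03. It turned to 0.21 without double-deficient replicate 4, to 0.13 without control replicate 4 and to 0.00 with double-deficient replicate 2 left out. Ifi204 had 0.24, -1.58, 0.75 and -0.82 against -0.16, -0.61, 0.16 and 0.94. These groups overlapped as well, with a difference of -0.43 (SE 0.54, exact permutation p = 0.514, limma adjusted p = 0.904) and an interval from -1.69 to 0.82. It was -0.02, -0.80 and -0.28 with double-deficient replicates 2, 3 and 4 left out in turn, and -0.67 and -0.15 with control replicates 2 and 4 left out.

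Of the 4 members, 0 passed the adjusted threshold in aorta, where 1 gene of 22180 was called lower (0.00451%), the lymphoid surface gene Ly6d (-3.54, SE 0.29, limma adjusted p = 0.0495), and 0 higher (0%). At an unadjusted p under 0.05, 2 of 4 members were lower, against 3.81% of all genes lower and 3.91% higher. The groups of 1 of 4 did not overlap on the lower side, against 2.11% of all genes (2.19% on the higher side). The members' median difference was -0.70 in aorta and -0.25 in CD115+ cells, and that of all genes was 0.01 and -0.01.

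The CD115+ difference minus the aorta difference, from 1 fit of all 14 arrays, was -1.51 (SE 0.68) for Ifi205 and -0.21 (SE 0.76) for Ifi204. It was 1.12 (SE 0.53) for Aim2 and 1.16 (SE 0.48) for Mndal. Quantile normalization turned the value of Ifi204 to 0.02. That fit takes 1 spread for both tissues and treats the 14 arrays as independent. Fitted apart, the SE of Ifi205 was 0.25 in CD115+ cells and 0.51 in aorta. Since the quantity holds the contrast that chose the genes, it was not tested.

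The other measured genes of the cluster differed among themselves. Ifi209, a pyrin and HIN domain gene formerly called Pyhin1, had values of -1.17, -1.03, -0.06 and -0.18 in double-deficient aortas and 2.06, 2.06, 0.06 and 0.60 in ApoE-deficient aortas. As with Mndal, the groups did not overlap and control replicate 3 stood nearest to the other genotype. The difference was -1.80 (SE 0.51), the largest of the family in aorta, with an adjusted p of 0.468 over all genes (limma). In CD115+ cells Ifi209 was at -1.51 in double-deficient replicate 1 and between -0.23 and 0.29 on the other 5 arrays, the low array being the one that was also lowest for Aim2, Mndal and Ifi204. Its CD115+ difference was -0.25 (SE 0.50), and 0.34 without that replicate.

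Ifi213 and Ifi208, whose promoter stretches are identical above, differed by -0.80 (SE 0.41) and -0.75 (SE 0.34) in aorta, and by -0.30 (SE 0.15) and 0.03 (SE 0.15) in CD115+ cells. They were not high in the same aortas. Ifi213 had 0.96, 1.14, -0.68 and 0.41 in ApoE-deficient replicates 1 to 4, while Ifi208 had -0.11, -0.03, 1.05 and 1.16. Ifi207, whose stretch shared 44 of 50 bases with that of Ifi205, differed by 0.04 (SE 0.20) in aorta and -0.23 (SE 0.20) in CD115+ cells, the latter -0.02 without ApoE-deficient replicate 1 and -0.65 against that replicate alone. Ifi202b, which encodes a protein of HIN domains without a pyrin domain, lay between -0.05 and 0.05 on all 14 arrays and differed by 0.01 (SE 0.05) in aorta and 0.01 (SE 0.05) in CD115+ cells. Whether it was above background cannot be seen in centred values. Ifi214 differed by -0.65 (SE 0.40) in aorta, and by -0.20 without ApoE-deficient replicate 1, and the pseudogene Ifi203-ps by 0.14 (SE 0.38).

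Of these 7 other family genes, 0 passed the adjusted threshold in either tissue. In aorta 4 of 7 were negative, against 47.2% of all genes, 1 of 7 did not overlap on the lower side (2.11% of all genes) and the median difference was -0.65. In CD115+ cells 3 of 7 were negative, against 55.3% of all genes, 0 of 7 separated the genotypes and the median was 0.01.

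**Figure D3:**
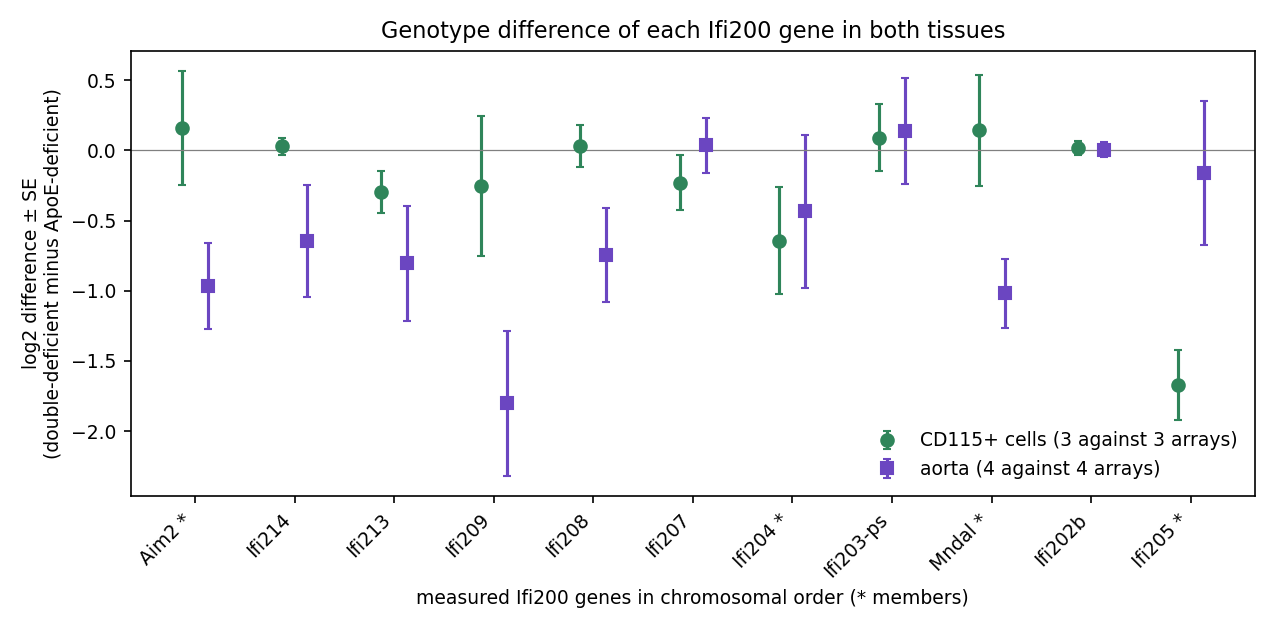
Log2 difference (double-deficient minus ApoE-deficient) with SE for the 11 measured genes of the cluster in chromosomal order, circles for CD115+ cells (3 against 3 arrays) and squares for aorta (4 against 4 arrays). Ifi205 has the lowest value in CD115+ cells (-1.67) and Ifi209 in aorta (-1.80).

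The arrays on which the members were high also differed in markers of other cells. In aorta the mean of 6 B cell markers was 1.95, 2.10, -0.16 and 1.07 in ApoE-deficient replicates 1 to 4 and lay between -0.63 and -0.16 in the double-deficient arrays. The mean of 6 T cell markers was 1.19, 1.52, 0.22 and 0.73, and between -1.19 and -0.28. All 6 B cell and all 6 T cell markers had negative differences, with medians of -1.71 and -1.88. Among the aortas Aim2, Mndal and Ifi209 were thus high on the 3 control arrays on which the lymphocyte markers were high, and near 0 on the control array where the B cell markers were low. The 6 natural killer cell markers were also all negative (median -0.55, from -0.07 to 0.79 in control and from -0.49 to -0.01 in double-deficient arrays). Of 5 plasmacytoid dendritic cell markers, 4 were negative (median -0.63). Their mean lay from 0.26 to 0.85 in control and from -0.66 to -0.44 in double-deficient arrays. Ly6d, at -3.54, is on that list. Platelet markers (4 of 4, median -0.36) and neutrophil markers (6 of 7, median -0.29) were mostly negative too, with means that overlapped. By contrast, 7 core monocyte and macrophage markers had a median difference of 0.20 (3 of 7 negative), with means from -0.29 to 0.23 in control and from -0.47 to 0.70 in double-deficient arrays. The 8 macrophage markers had a median of 0.10 (2 of 8 negative), and all 5 smooth muscle and all 5 endothelial markers were positive (medians 0.29 and 0.11). The part of these cells in the differences of Aim2, Mndal and Ifi209 was not tested, and in tissue RNA fewer cells of a type and less RNA per cell cannot be told apart.

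In CD115+ cells the B cell markers went the other way from aorta. Their mean was -0.31, 1.90 and 1.12 in double-deficient replicates 1 to 3 and 0.31, -0.91 and -0.87 in ApoE-deficient replicates 1, 3 and 4, with 6 of 6 markers positive and a median difference of 1.45. Aim2 and Mndal were highest on the 2 preparations with the highest B cell mean, and low on double-deficient replicate 1, where that mean was below 0. ApoE-deficient replicates 3 and 4 had still lower B cell means but higher Aim2 (-0.23 and -0.34) and Mndal (-0.19 and -0.16) than that replicate (-0.86 and -0.83). Ifi205 was lowest, at -1.20 and -1.10, on double-deficient replicates 2 and 3, and highest, at 1.15, on ApoE-deficient replicate 3, where the B cell mean was lowest. But it was nearly the same, at 0.52 and 0.53, on ApoE-deficient replicates 1 and 4, whose B cell means were 0.31 and -0.87. On double-deficient replicate 1, with a B cell mean of -0.31, it was -0.52. The mean of the 6 T cell markers was 0.07, 0.44 and 0.10 in double-deficient and -0.01, -0.23 and -0.28 in control preparations, so that its groups did not overlap, with 6 of 6 markers positive and a median difference of 0.39. Markers of Ly6C-high monocytes, the inflammatory subset, lay from -1.01 to -0.07 in double-deficient and from 0.01 to 0.68 in ApoE-deficient preparations. All 6 were negative (median -0.70), and 4 of 6 did not overlap on the lower side, against 5.23% of all genes. Those of Ly6C-low monocytes lay from -0.32 to 0.72 and from -0.10 to 0.24 (4 of 8 negative, median 0.00). Means of the core monocyte and macrophage markers lay from -0.54 to 0.53 in double-deficient and from -0.11 to 0.25 in control preparations (3 of 7 negative, median 0.05). Among them Csf1r, which encodes CD115, differed by 0.05 (SE 0.49) and Fcgr1 by -1.07 (SE 0.32). The T cell and Ly6C-high means separated the genotypes as Ifi205 did, and so did the mean of the interferon-stimulated genes described below. Double-deficient replicate 1 had the lowest core monocyte, Ly6C-high and interferon-stimulated means of all preparations (-0.54, -1.01 and -0.43). Its means of smooth muscle and adipocyte markers were the highest (0.21 and 0.28). The part of B cells, T cells and Ly6C-high monocytes in the values of Ifi205, Aim2 and Mndal was not tested.

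**Figure D4:**
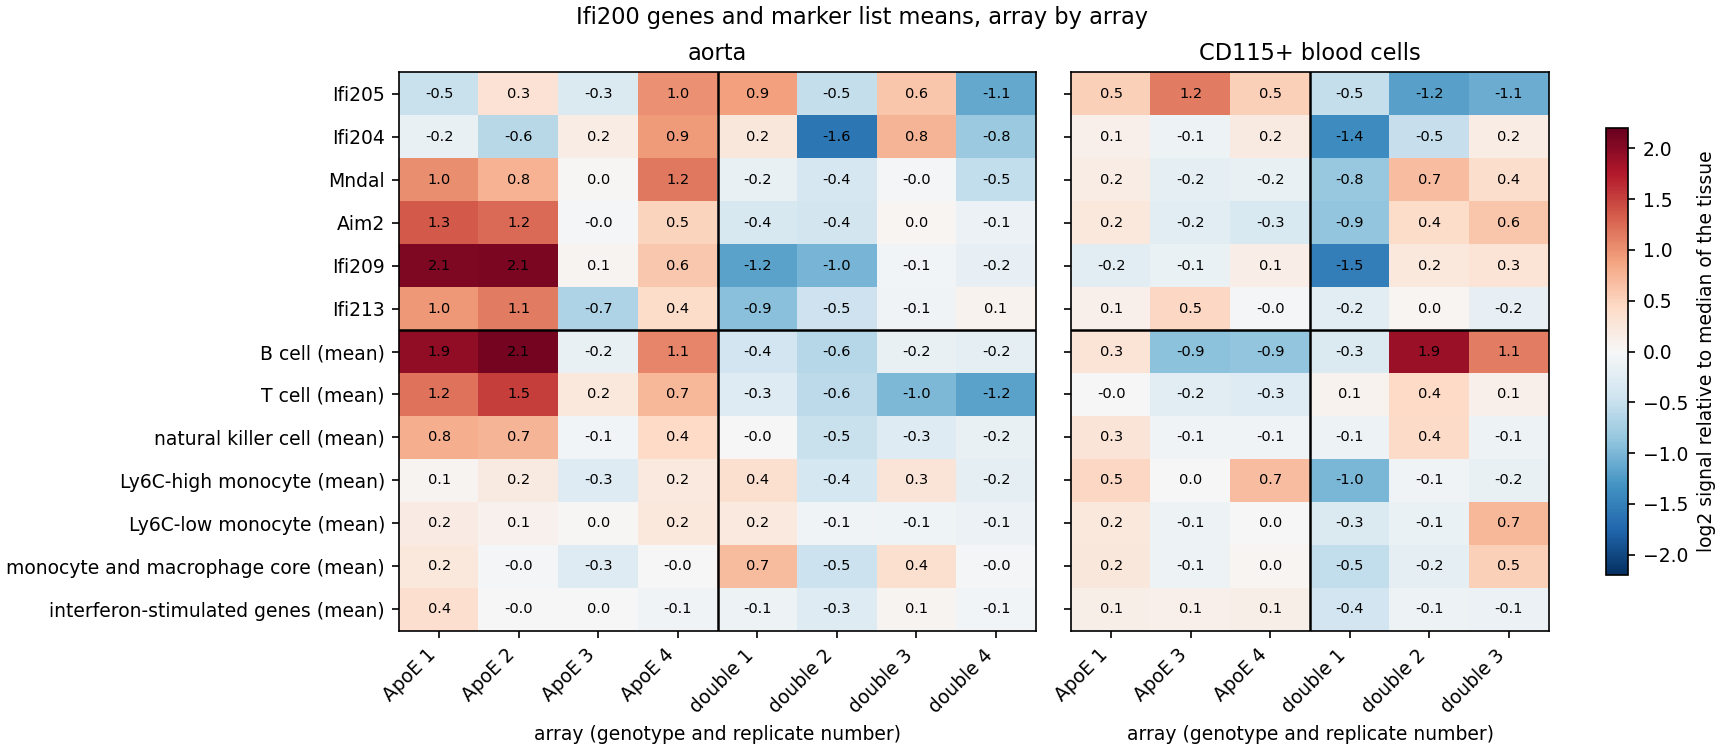
Log2 signal relative to the median of the tissue, array by array, for 6 Ifi200 genes (upper block) and for the means of 7 gene lists (lower block), with aorta on the left and CD115+ cells on the right. Red is above and blue below the median. In aorta Mndal, Aim2 and Ifi209 are high on ApoE-deficient arrays 1, 2 and 4, as are the B and T cell means. In CD115+ cells, the contrast that chose it, Ifi205 alone among the 6 genes has groups that do not overlap.

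The genes most like each member over both tissues were named by the lower of 2 Pearson correlations, that over the 8 aortas and that over the 6 CD115+ preparations. They are a description over few arrays that share genotype and cell content. Aim2 was closest to Ptpn22, a phosphatase that restrains antigen receptor signalling (r = 0.98 and 0.98), to Parvg (0.98 and 0.97) and to Shisa5 (0.97 and 0.97). Mndal was closest to Lrmp, a membrane protein of lymphoid cells (0.97 and 0.95), to Sp100, an interferon-inducible nuclear body protein (0.95 and 0.96), and to Tmsb4x (0.94 and 0.97). Ifi204 was closest to Rnh1, the ribonuclease inhibitor (0.94 and 0.97), to Dhx58, an interferon-inducible RNA sensor also called LGP2 (0.84 and 0.93), and to Zdhhc6 (0.84 and 0.89). Ifi205 was closest to Spon2 (0.87 and 0.88), Exoc8 (0.84 and 0.87) and Ryk (0.88 and 0.80).

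Genes that share the interferon input were described next. In CD115+ cells 24 of 26 measured interferon-stimulated genes were negative (55.3% of all genes), with a median of -0.33 against -0.01 for all genes. Their mean lay from -0.43 to -0.12 in double-deficient and from 0.10 to 0.13 in ApoE-deficient preparations, without overlap. The groups of 11 of 26 did not overlap on the lower side, against 5.23% of all genes, and 11 had an unadjusted p under 0.05 on that side, against 2.33%. None passed the adjusted threshold. The genes of smallest p were Usp18, which removes ISG15 from proteins, at -0.56 (SE 0.07), Slfn5 at -0.36 (SE 0.08), the antiviral gene Rtp4 at -0.95 (SE 0.22) and Oas2, an oligoadenylate synthetase, at -1.09 (SE 0.27). In aorta 19 of 26 were negative (47.2% of all genes) with a median of -0.14, and 0 of 26 separated the genotypes or had an unadjusted p under 0.05. There Irf7, a transcription factor of the interferon response, was at -0.65 (SE 0.29), Usp18 at -0.63 (SE 0.29), Trim30a at -0.53 (SE 0.26) and Bst2, also called tetherin, at -0.36 (SE 0.17), with adjusted p of 0.656 to 0.675 (limma).

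Genes of inflammasomes and pyroptosis, not all of them partners of AIM2, had small median differences in both tissues. In aorta 14 of 18 were negative (47.2% of all genes) with a median of -0.12. At an unadjusted p under 0.05, 2 of 18 were lower (3.81% of all genes) and 1 higher (3.91%), and 0 passed the adjusted threshold. Il18, a cytokine matured by caspase-1, was at -1.28 (SE 0.40), and Il1a, a cytokine released from dying cells, was at -0.69 (SE 0.17). Groups of Il1a did not overlap, 1 of 18 on the lower side, against 2.11% of all genes. Il1b, whose product caspase-1 also matures, was at 0.08 (SE 0.27). Pycard was at -0.51 (SE 0.32), Casp1 at -0.19 (SE 0.19) and Gsdmd, the gene of gasdermin D, at -0.06 (SE 0.26). Naip2, a sensor of bacterial proteins, was at -0.50 (SE 0.31) and Card9, an adaptor of fungal recognition, at 0.20 (SE 0.09). In CD115+ cells 13 of 18 were negative (55.3% of all genes) with a median of -0.10, and 1 of 18 was lower at an unadjusted p under 0.05 (2.33% of all genes). This was Ninj1, a membrane protein that ruptures dying cells, at -0.25 (SE 0.09). Mefv, which encodes pyrin, was at -0.32 (SE 0.16), Il18 at -0.28 (SE 0.15) and Nlrp1a at -0.28 (SE 0.18). The highest value of the list was that of Il1b, at 0.91 (SE 0.60). Pycard was at -0.20 (SE 0.24), Gsdmd at -0.11 (SE 0.22) and Casp1 at 0.004 (SE 0.16).

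A list of other genes of DNA sensing, with signalling partners, enzymes that act on nucleic acids and DNA-binding proteins, had 16 of 18 genes measured. In aorta 11 of 16 were negative (47.2% of all genes) with a median of -0.25, and 1 of 16 had an unadjusted p under 0.05 on the lower side (3.81% of all genes). This was Mre11a, a nuclease of double-strand break repair, at -0.49 (SE 0.19). Dnase1l3, a secreted DNase of myeloid cells, was at -1.07 (SE 0.49), the endosomal DNA receptor Tlr9 at -0.73 (SE 0.38) and Zbp1, a sensor of Z-form nucleic acid, at -0.63 (SE 0.32). In CD115+ cells 6 of 16 were negative (55.3% of all genes) with a median of 0.03. Zbp1 was at -0.57 (SE 0.38), Xrcc6, a DNA end-binding subunit, at -0.15 (SE 0.09), Hmgb1 at 0.11 (SE 0.06) and Cgas, which makes the second messenger that activates STING, at -0.08 (SE 0.07). In neither tissue did a gene of this list separate the genotypes or pass the adjusted threshold.

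**Figure D5:**
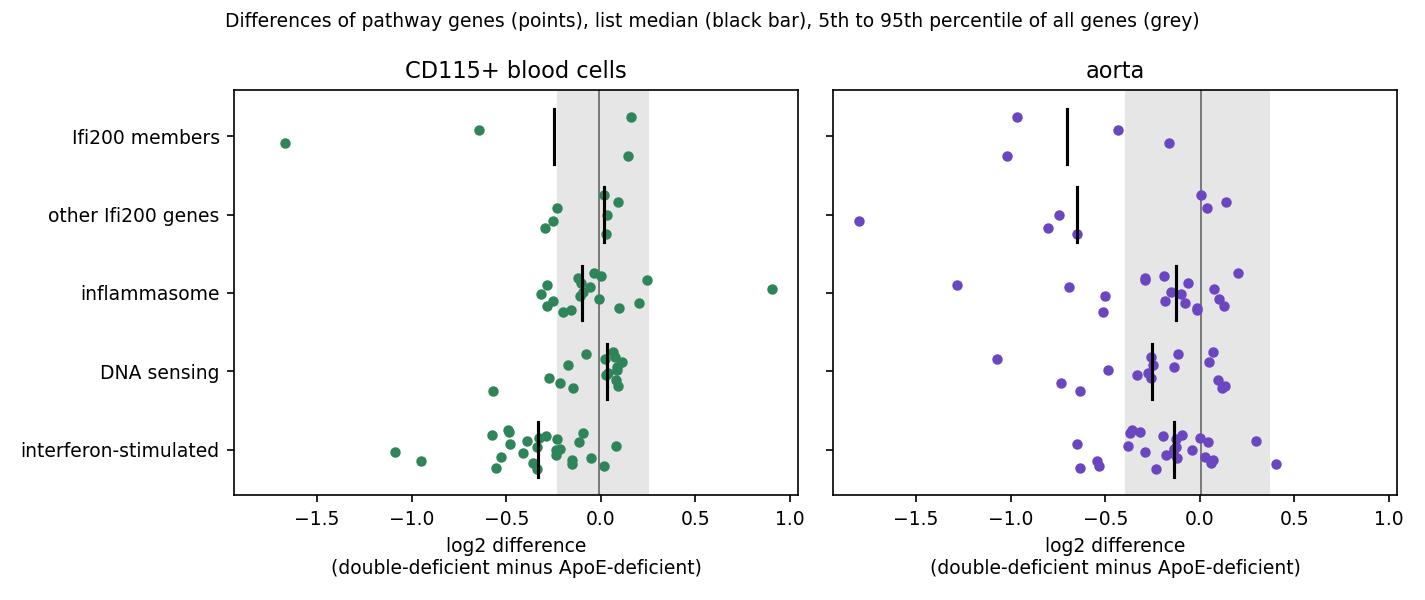
Log2 difference (double-deficient minus ApoE-deficient) of each measured gene of 5 lists, with the list median as a black bar and the 5th to 95th percentile of all 22180 genes in grey. In CD115+ cells the interferon-stimulated genes have a median of -0.33, and in aorta the 4 members have a median of -0.70.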

How the data were processed

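Per the labels' protocols, RNA was converted to cDNA from 1 ng per sample, amplified and labelled with biotin for arrays. The authors' deposited table covers 33793 probe sets and 14 arrays and was taken to hold log2 values. Neither log base nor normalization is given in the sources used here. Every probe set's median was 0 in each tissue, within 5e-07, which shows centring by probe set and tissue, and no filter on low values was possible.

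A platform annotation named 23521 probe sets with 1 symbol and 1814 with several, and listed none for 8458. Values of probe sets with 1 symbol were averaged per gene. The genotypes were compared separately for aorta and CD115+ cells by lmFit and eBayes (limma 3.58.1, R 4.3.3), a fit tested on simulated data. P-values were adjusted by Benjamini-Hochberg over 22180 genes, with a threshold of 0.05. Members were also tested in aorta by exact permutation. P-values measure the spread between samples, which the labels call separate. The rule for names took the members, the other measured family genes, the 4 genes of smallest p per pathway list and tissue, the 3 genes most like each member, Ltbr, and the 5 nearest measured coding genes on each side of the cluster. Ly6d, Il1b, Pycard, Casp1 and Gsdmd were named after their values were seen. Members and lists were chosen with earlier results of these data known. Alternatives were other summaries, variance models, scalings, all arrays in 1 fit, the replicate number as a block, and leaving out each array.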

Additional observations from a re-analysis of the deposited data

Results flagged for a closer look

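Ifi214 stood at 1.98 in ApoE-deficient aorta replicate 1, far from the other 3 control aortas, which lay between -0.01 and 0.32. It was 1 of 22 groups of 4 arrays examined for the 11 family genes, and chance alone marks about 1 in 20 such groups.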

How the results depend on the processing

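Under 16 alternatives in aorta and 15 in CD115+ cells, the differences of Aim2, Mndal and Ifi204 in aorta and of Ifi205 and Ifi204 in CD115+ cells kept their sign. For Mndal in aorta and Ifi205 in CD115+ cells, whose groups did not overlap, leaving out an array could not have changed it. Leaving out 1 array at a time gave -1.23 to -0.77 for Aim2, -1.26 to -0.88 for Mndal, -0.80 to -0.02 for Ifi204 and -0.47 to 0.21 for Ifi205 in aorta. It gave -0.088 to 0.17 for Ifi207, -0.0014 to 0.012 for Ifi202b and -0.067 to 0.53 for Ifi203-ps. Ifi203-ps was at -0.18 with probe sets of several symbols averaged in. Quantile normalization put Ifi205 in CD115+ cells at -2.13. The cause was not tested. Genes called lower in aorta numbered 0 with the probe set of largest SD, with robust eBayes and with array weights, 8 lower and 11 higher with all 14 arrays in 1 fit, and 0 to 69 lower and 0 to 5 higher without 1 array, the most without ApoE-deficient replicate 3.

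With the replicate number as a block the aorta differences of Aim2 and Mndal were -0.97 (SE 0.34) and -1.02 (SE 0.28), and Ifi205 in CD115+ cells was at -1.64 (SE 0.39). Aim2 and Mndal in CD115+ cells stood at -0.13 and -0.20. The block changed no call. Same-numbered samples had correlations of their deviations of -0.15 to 0.17 in aorta, and of -0.47 and -0.29 in CD115+ cells. Those of differently numbered samples ran from -0.14 to 0.25 and from -0.18 to 0.35. So few pairs cannot decide whether samples of the same number were matched in some way.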

Other observations

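Probe sets that list several Ifi200 genes were kept out of the report's values. The one listing Ifi203 with Ifi203-ps and a further locus, whose signal cannot be assigned to 1 gene, had 0.91, 0.67, -0.39 and 0.37 in ApoE-deficient aortas 1 to 4 and -0.14, -0.30, 0.14 and -0.16 in double-deficient aortas. The difference was -0.51 (SE 0.27), and -0.20 (SE 0.29) in CD115+ cells. As for Aim2, control replicates 1, 2 and 4 were the highest of the 8 aortas. The one listing both Ifi211 and Ifi204 had -0.77, -0.45 and -0.04 in CD115+ cells of double-deficient mice, against 0.10, 0.04 and 0.10 in controls. These groups did not overlap, as was so for 5.23% of all genes on the lower side, and their nearest values were -0.04 and 0.04. The difference was -0.50 (SE 0.18). In aorta its difference was -0.10 (SE 0.34).

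Of the 5 measured protein-coding genes on each side of the cluster in RefSeq order, Fcer1a, a chain of the IgE receptor, differed by -0.25 (SE 0.17) in aorta and 0.04 (SE 0.06) in CD115+ cells. Ackr1, a chemokine-binding receptor of venules and red cells, was at 0.31 (SE 0.26) and -0.19 (SE 0.11). Cadm3, an adhesion molecule, was at 0.76 (SE 0.27) in aorta, where its groups did not overlap with the double-deficient side higher, against 2.19% of all genes, and at -0.07 (SE 0.14) in CD115+ cells. Mptx2 was at -0.05 and -0.08. The 6 olfactory receptor genes lay between -0.10 and 0.07 in aorta. In CD115+ cells they lay between -0.17 (Olfr427) and 0.19 (Olfr418). The groups of these 2 genes did not overlap, in opposite directions. Olfr427 was on the lower side, as were 5.23% of all genes, and Olfr418 on the higher side, as were 3.93%.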
